A study of Mus musculus with 4 samples.

Results

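The interferon response genes described here are 38 mouse genes chosen by name, of which 28 are known mainly as targets of type I interferons, 9 mainly as targets of type II interferon, and 1, Cxcl10, as a target of both. Of the 38, 36 had a row among the 32285 genes of the count tables (26 type I, 9 type II and Cxcl10), and Mx1 and Mx2 were not analysed here. The genes were followed in 4 single-cell RNA-seq libraries of fracture callus, the tissue that bridges a broken bone. All mice were wild-type C57BL/6J, 3 months old, with a fracture of the tibia. The RA mice received serum of K/BxN mice, which carries antibodies that cause joint inflammation when transferred, and the control mice received vehicle. The libraries are control_4d and RA_4d, taken at 4 days post fracture (dpf), and control_7d and RA_7d, taken at 7 dpf. RA is here an acute serum-transfer model in otherwise healthy mice, and each library was made from 1 pool of calluses, given as 4 in the labels and as 3 in the study's methods.

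Type I interferons (the interferon-α family and interferon-β) bind the receptor made of Ifnar1 and Ifnar2. The signal reaches the interferon-stimulated response element in the promoters of genes such as the Ifit and Oas families, with Stat2 and Irf9 among the factors that bind there. Interferon-γ, the type II interferon, is made mainly by T and NK cells. It binds Ifngr1 and Ifngr2 and acts at gamma-activated sites, with the guanylate-binding proteins (Gbp), the immunity-related GTPases and Cxcl9 among its targets. The separation is one of degree, because many of these genes respond to either ligand. In bone, interferons are known mostly for restraining osteoclast formation.

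Each condition and day has 1 library, so no difference below has a replicate check or a test. The libraries held 5896 to 10306 cell barcodes and 130168130 to 182259646 unique molecular identifiers (UMIs), and 4110 to 8223 cells per library (25479 in all) passed the study's limits on UMIs, genes and mitochondrial share. Any pair of libraries shared 10 to 31 barcodes. Cell types were named from marker genes after clustering without the interferon genes, and each name means that the cells resemble that type. Broad groups are called lineages: the myeloid lineage joins macrophages, monocytes, dendritic cells, neutrophils, osteoclasts and other myeloid cells, and the mesenchymal lineage joins mesenchymal cells, tenocytes and chondrogenic cells. Levels are counts per 1000000 UMIs (CPM), summed over all cells of a type in a library, and intervals are 95% Poisson intervals that cover counting error only. UMIs at the 3′ end of transcripts do not scale with transcript length. Reads of near-identical copies can be split or lost, so the levels of Ifit1, Ifit3, Oas1a, Igtp, Trim30a and the Gbp genes are uncertain to that extent.

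The sequences near the starts of the members were searched for the motifs of both signals. RefSeq promoters (GRCm38.p6, from 250 bases before to 50 after the start) were found for 29 of the 38 members. The core of the response element, GAAA, any 2 bases and GAAA again, on either strand, occurred in 17 of the 29 (58.62%), against 3.993% of 27025 genes with a promoter in the same table. It was found in 10 of 19 type I members (52.63%) and in 6 of 9 type II members (66.67%), so it was found in both sets. The gamma-activated site, TTCNNNGAA, occurred in 8 of 29 members (27.59%), in 4 of the 19 type I members (21.05%), in 4 of the 9 type II members (44.44%) and in 9.554% of all genes. In 1 member, Bst2, matches of the 2 motifs overlapped. The windows below were chosen to show the response element in genes of both sets and the gamma-activated site in Irf1 and Igtp, and capitals mark the motif. Each is upstream of the RefSeq start, given 5′ to 3′ on the strand of the gene.
Isg15, chr4:156200871-156200900, minus strand: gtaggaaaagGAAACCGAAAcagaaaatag
Ifit1, chr19:34640794-34640823, plus strand: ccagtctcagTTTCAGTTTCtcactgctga
Oas3, chr5:120777715-120777744, minus strand: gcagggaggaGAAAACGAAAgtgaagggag
Bst2, chr8:71537577-71537606, minus strand: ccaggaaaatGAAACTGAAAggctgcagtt
Gbp2, chr3:142620594-142620623, plus strand: actcttttagTTTCACTTTCactgtcttaa
Gbp7, chr3:142530273-142530302, plus strand: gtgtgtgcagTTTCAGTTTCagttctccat
Irgm1, chr11:48871425-48871454, minus strand: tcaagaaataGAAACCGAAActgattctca
Igtp, chr11:58199501-58199529, plus strand: aactagccatTTCTAGGAActgaaactga
Irf1, chr11:53769914-53769942, plus strand: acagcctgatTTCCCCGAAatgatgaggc

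Isg15 and Irf1 were chosen as examples of 1 motif without the other, and the 150 bases before a RefSeq start of each are given whole. The Isg15 stretch holds 3 overlapping matches of the response element and no gamma-activated site, whereas that of Irf1 holds 1 gamma-activated site and no response element. Irf1 has a further RefSeq start, and the stretch before it holds neither motif. A match is a description of the letters, and its absence says nothing of the factor.
Isg15, chr4:156200819-156200968, minus strand: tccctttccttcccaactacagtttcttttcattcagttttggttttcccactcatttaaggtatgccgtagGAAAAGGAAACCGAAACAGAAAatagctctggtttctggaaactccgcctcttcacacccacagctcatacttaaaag
Irf1, chr11:53769864-53770013, plus strand: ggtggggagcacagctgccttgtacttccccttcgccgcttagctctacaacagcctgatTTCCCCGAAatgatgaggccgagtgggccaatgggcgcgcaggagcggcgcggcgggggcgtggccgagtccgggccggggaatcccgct

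Pooled over libraries, the summed level of the type I members was highest in macrophages and that of the type II members in blood endothelial cells. Single libraries can differ from the pool: in control_7d Ifi27l2a, Ifit1, Ifit2, Ifit3, Oas1a, Ifih1 and Irf7 were highest in other myeloid cells. Over all libraries the type I sum was 2499 CPM in macrophages, 2050 in other myeloid cells, 1980 in monocytes and 1554 in dendritic cells. It was 1193 CPM in blood endothelial cells, 1044 in T or NK cells and 985 in mesenchymal cells, and the lowest sums stood in muscle cells (239) and chondrogenic cells (142). The type II sum had another order, with 397 CPM in blood endothelial cells, 280 in T or NK cells, 189 in macrophages, 160 in mesenchymal cells and 30.5 in chondrogenic cells. Per 100 type I UMIs, blood endothelial cells held 31.3 type II UMIs in control_4d, 33.0 in RA_4d, 28.2 in control_7d and 40.1 in RA_7d, whereas macrophages held 6.80, 8.10, 7.96 and 8.57. The ranges of these cell types do not overlap across the 4 libraries, but other types had shares near those of blood endothelial cells. In the same order of libraries T or NK cells held 22.3, 32.2, 22.4 and 28.75, and muscle cells 27.6, 28.7, 20.1 and 33.0. With Ifi27l2a and Bst2, described next, left out of the type I UMIs, blood endothelial cells held 54.2 to 69.4 and macrophages 16.5 to 21.6.

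**Figure D1:**
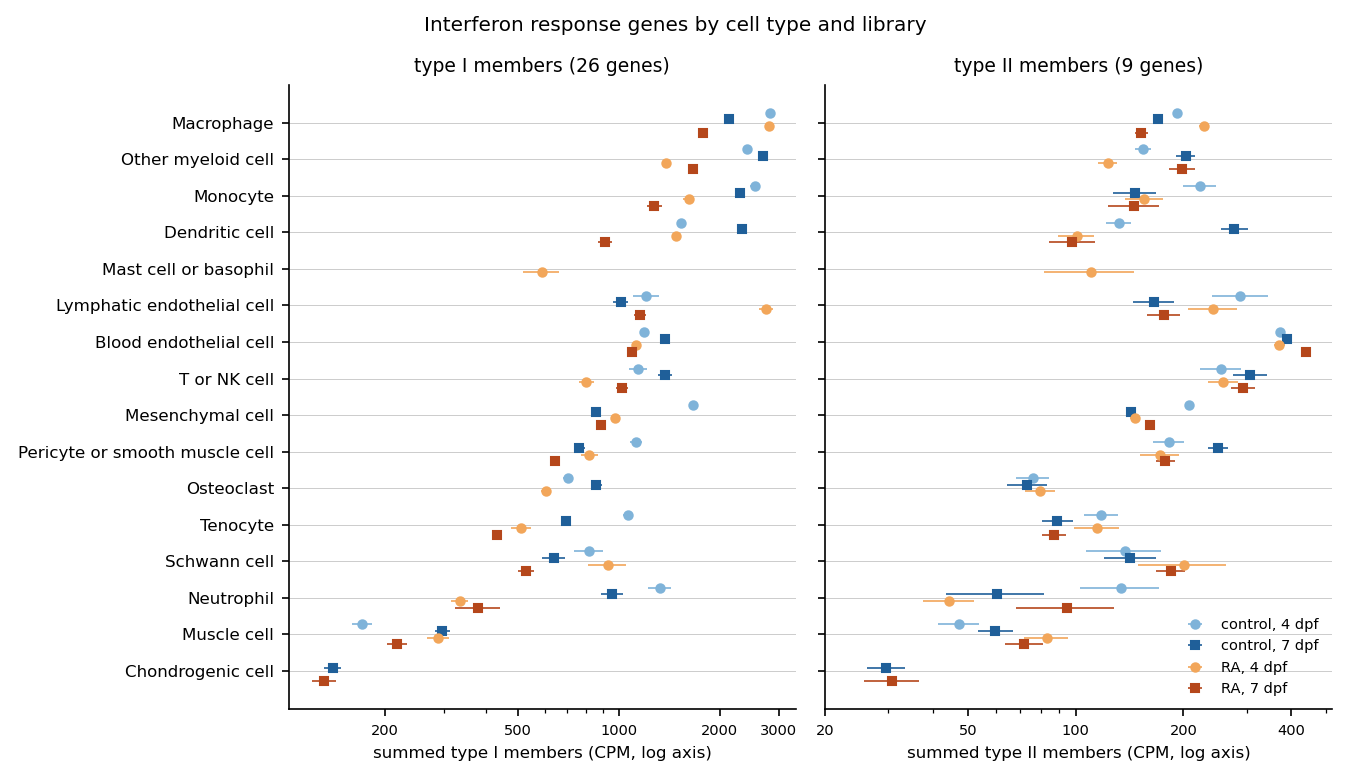
Summed level (CPM, log axis) of the 26 type I members (left) and of the 9 type II members (right) in each cell type, with 1 point per library and bars for the 95% Poisson interval. Pooled over libraries, macrophages hold the highest type I sum (2499 CPM) and blood endothelial cells the highest type II sum (397 CPM), and chondrogenic cells are lowest in both.

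Of the type I members, 2 genes held the largest shares of the type I UMIs of each library. Ifi27l2a, a small membrane protein of the Ifi27 family, made up 32.1% to 43.3% of the type I UMIs of a library, and Bst2, the membrane tether that holds budding viruses (tetherin), 17.3% to 23.1%. Their distributions differed. Ifi27l2a reached 1372 CPM in macrophages of control_4d, 1018 in RA_4d, 1013 in control_7d and 761 in RA_7d, but only 88.4, 58.0, 73.6 and 39.8 CPM in blood endothelial cells. Bst2 was higher in blood endothelial cells (466, 423, 586 and 422 CPM) than in macrophages (401, 416, 322 and 315 CPM) in each of the 4 libraries. Because of this weight, the ratios of type I sums of lineages and cell types below are also given without these 2 genes.

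Among the other type I members, genes of the oligoadenylate synthetase family were concentrated in myeloid cells. The family is named for enzymes that make the second messenger that activates RNase L. Oasl2 stood at 60.6, 81.1, 46.6 and 32.0 CPM in macrophages (control_4d, RA_4d, control_7d and RA_7d, the order used from here on) and at 28.3, 28.4, 26.7 and 23.1 CPM in blood endothelial cells. In lymphatic endothelial cells it was nearly missing, with 0, 1, 1 and 0 UMIs in 31, 34, 97 and 148 cells. Oas3 was at 27.8, 44.7, 22.7 and 13.4 CPM in macrophages and at 1.02, 1.04, 0.486 and 0.188 CPM in blood endothelial cells. Isg15, the ubiquitin-like protein that is attached to other proteins, was at 155, 169, 318 and 95.7 CPM in dendritic cells and at 202, 234, 150 and 168 CPM in pericytes or smooth muscle cells, and pooled over libraries these types stood at 175.9 and 175.6 CPM, above all others. Of the 26 type I members, 12 were highest in macrophages when libraries were pooled, among them Ifit2, Ifit3, Rtp4, Trim30a, the RNA sensors Ifih1 and Dhx58, and Irf7, the regulator that amplifies type I interferon production. In single libraries Oasl2 was highest there in all 4, and Oas1a, Oas2 and Dhx58 in 3. Ifit3, Rtp4, Ifih1 and Irf7 were so in 2, and Ifit2, Oasl1, Ifi27l2a and Trim30a in 1. Pooled, Ifi44, Xaf1 and Parp14 were highest in blood endothelial cells, a rank that held in 2, 1 and 2 single libraries. Ifi44 was at 35.0, 32.4, 39.1 and 30.7 CPM in blood endothelial cells against 6.17, 8.68, 4.18 and 3.32 CPM in macrophages.

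Of the 9 type II members, 7 were highest in blood endothelial cells when libraries were pooled: Gbp2, Gbp3, Gbp5, Gbp7, Irgm1, Igtp and Irf1. In single libraries Gbp2, Gbp5 and Irf1 were highest there in all 4, Gbp3 in 3, Irgm1 and Igtp in 2 and Gbp7 in 1. Irf1, the transcription factor with the gamma-activated site shown above, was at 107, 113, 106 and 146 CPM in blood endothelial cells and at 21.8, 22.1, 21.5 and 23.5 CPM in macrophages. Gbp2, which attacks pathogen vacuoles, was at 50.6 to 63.2 CPM there over the 4 libraries, against 17 to 25 CPM in macrophages. Irgm1, a regulator of the immunity-related GTPases, did not separate the 2 types: pooled, it stood at 37.2 CPM in blood endothelial cells and 36.2 CPM in macrophages. Ifi47, another GTPase, was highest in T or NK cells when pooled and in each library but RA_4d, where macrophages were higher (55.2, 41.3, 48.5 and 53.1 CPM in T or NK cells). Pooled over libraries, the chemokine Cxcl10 was highest in Schwann cells (158 CPM), a rank that RA_7d alone of the 4 libraries shared. It was there at 51.7 CPM in control_4d, 126 in RA_4d, 93.5 in control_7d and 207 in RA_7d, from 30, 20, 66 and 186 cells. In these cells it was higher in the RA library at both days.

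**Figure D2:**
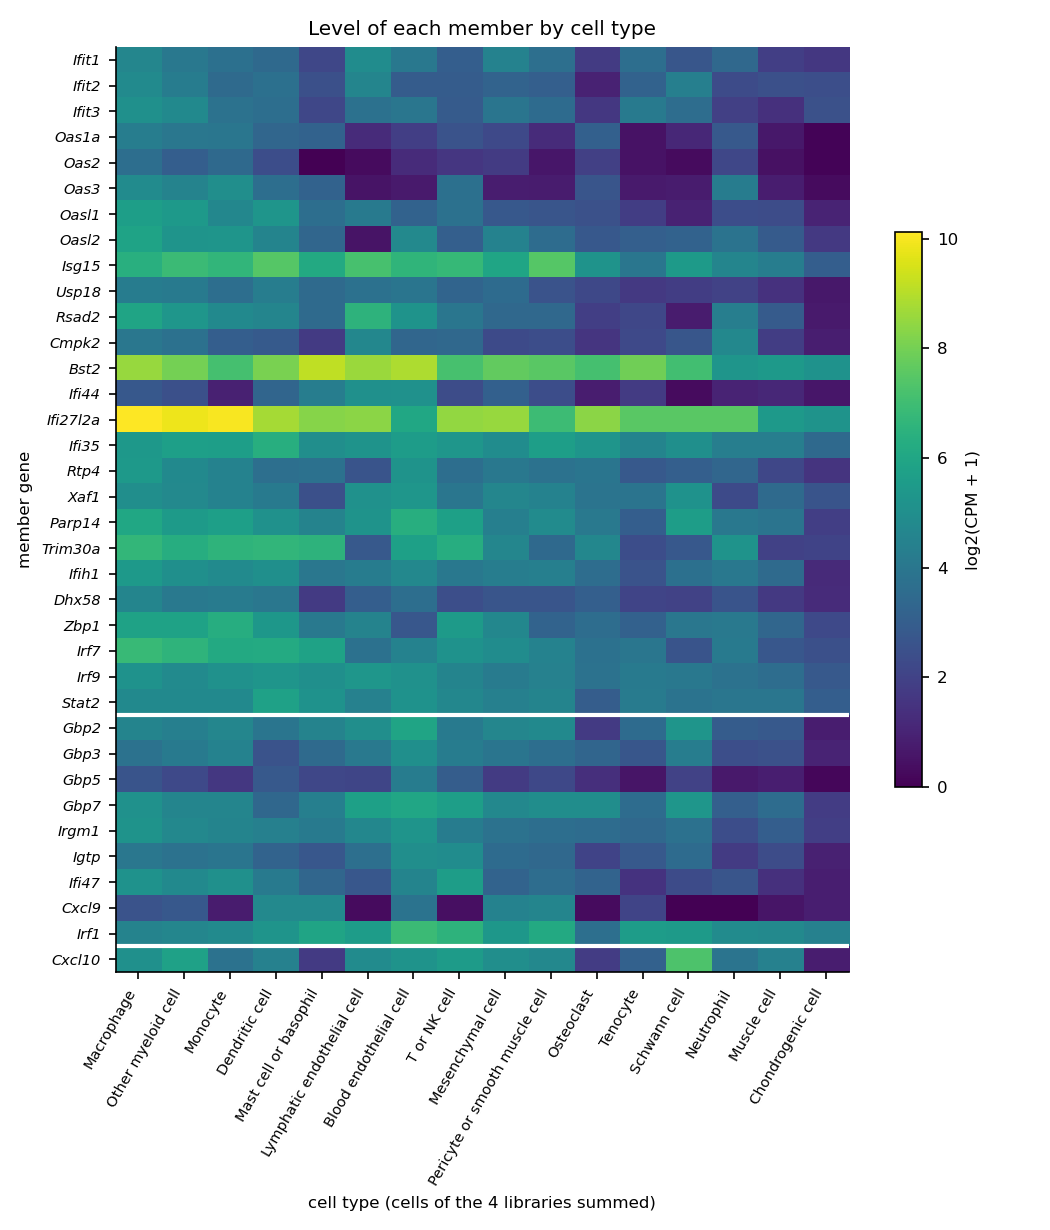
Level of each of the 36 measured members (rows) in each cell type (columns) as log2(CPM + 1), with the cells of the 4 libraries summed and white lines between the type I, type II and shared members. Ifi27l2a and Bst2 are the brightest type I members, and 7 of 9 type II members are brightest in blood endothelial cells.

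The ligands were scarce. Ifnb1 (interferon-β) gave 6 UMIs in all cells of all libraries, 0 in control_4d, 2 in RA_4d, 4 in control_7d and 0 in RA_7d. Ifng (interferon-γ) gave 92, 125, 189 and 332 UMIs, and T or NK cells held 78.59% of its 738 UMIs. All kept cells gave 108438906, 83405494, 141714572 and 156567619 UMIs, so over all cells the Ifng level was higher in the RA library at both days. Within T or NK cells its level was 87.7 CPM in control_4d, 62.2 in RA_4d, 134 in control_7d and 112 in RA_7d. These values were lower in the RA library at both days, but they rest on few UMIs and are given without intervals. T or NK cells were 1.66% of the kept cells in control_4d, 3.97% in RA_4d, 1.97% in control_7d and 3.38% in RA_7d. The receptor chains were detected widely: in macrophages Ifnar1 was at 57.5 to 78.6 CPM, Ifnar2 at 212 to 269, Ifngr1 at 160 to 200.4 and Ifngr2 at 99 to 110 CPM over the 4 libraries.

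The comparison of RA with control callus asks whether the response differed in the arthritic mice. At 4 dpf the largest difference among the 3 main lineages was in mesenchymal cells, where the members were lower in the RA library. The type I sum was 1595 CPM in control_4d and 929 CPM in RA_4d, a ratio of 0.582 (0.573 to 0.592), and 0.702 (0.685 to 0.720) without Ifi27l2a and Bst2. The type II sum was 198 and 143 CPM, a ratio of 0.725 (0.695 to 0.756). A gene was counted as past the fold when its ratio of CPM + 1 was at least 1.5-fold, and a gene was compared only where both libraries together gave it 50 UMIs or more. By this rule 13 of 35 members were lower in RA_4d and 0 higher, whereas 2.57% of 14268 genes were lower and 4.14% higher. The median log2 ratio was -0.47 for the members and 0.04 for all genes. The 13 genes were Ifit1, Ifit3, Oas2, Usp18, Rsad2, Cmpk2, Ifi27l2a, Trim30a, Zbp1, Irf7, Gbp3, Irgm1 and Cxcl9.

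In mesenchymal cells Ifi27l2a was at 747 CPM in control_4d, 330.3 in RA_4d, 246 in control_7d and 310.4 in RA_7d. Ifit1, which binds viral RNA caps, was at 41.5, 19.4, 19.5 and 13 CPM, and Irf7 at 49.5, 22.9, 23.1 and 24.4 CPM. Cxcl9, which attracts activated T cells, was at 33.7, 8.91, 18.9 and 16.6 CPM. In Ifi27l2a, Ifit1 and Irf7 it is control_4d that stands apart, and the other libraries lie closer to each other. For Ifit1, however, RA_7d was also lower than RA_4d and control_7d. Isg15 did not follow these genes, with 63.2, 61.8, 60.9 and 46.4 CPM, nor did Irf1 (39.0, 46.3, 36.8 and 40.7 CPM).

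The mesenchymal lineage is a mixture whose parts differed between the libraries. Among its clusters, named by their leading genes, the type I sum at 4 dpf in control was 2906 CPM in the Rorb/Pi16 cluster, 2475 in Myoc/Abca8a, 1970 in Saa3/Mmp3 and 429 in Tnn/Edil3. The Rorb/Pi16 cluster made up 22.2% of the mesenchymal cell type (the lineage without tenocytes and chondrogenic cells) in control_4d and 10.2% in RA_4d. With clusters weighted equally, 3 members of the lineage were lower and 0 higher, and with looser limits on cells 7 were lower, in place of 13. Within clusters the difference was uneven: of the members compared, 15 of 32 were lower in Saa3/Mmp3 (3.89% of all genes), 18 of 31 in Myoc/Abca8a (4.9%) and 0 of 27 in Tnn/Edil3 (2.91%), where 2 members, Isg15 and Ifi44, were higher (6.43%). Of 7 mesenchymal clusters the type I sum was lower in RA_4d in 5 and higher in 2. Without Ifi27l2a and Bst2 it was lower in 4 and higher in 3. The type II sum was lower in 3 and higher in 4, with ratios from 0.498 (Saa3/Mmp3) to 1.65 (Apod/Tenm2, 28 cells in each library). In Saa3/Mmp3 cells Cxcl9 was at 139 CPM in control_4d and 17.7 in RA_4d, and in Myoc/Abca8a cells Ifi27l2a was at 1356 and 434 CPM. These cluster counts were added after the data had been seen. The summed level of 10 macrophage markers in mesenchymal cells was 384, 598, 881 and 456 CPM, with none at 0, against 12780 CPM (control_4d) and 6247 CPM (RA_4d) in myeloid cells. The values of the sum at 4 dpf differ through Spp1, which osteogenic cells also make (276 CPM in control_4d and 503.5 in RA_4d), and of the other 9 markers 7 were lower and 2 higher in RA_4d. Their part in the result was not tested.

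Macrophages at 4 dpf went the other way once Ifi27l2a and Bst2 were set aside. Their type I sum was 2821 CPM in control_4d and 2814 CPM in RA_4d, a ratio of 0.997 (0.987 to 1.01), and without Ifi27l2a and Bst2 it was 1048 and 1380 CPM, a ratio of 1.32 (1.30 to 1.34). Of 36 members 6 were past 1.5-fold higher and 0 lower (all genes: 1.41% higher, 3.06% lower): Oas1a, Oas3, Oasl1, Isg15, Irf7 and Cxcl9. Isg15 was at 75.9 CPM in control_4d and 118 in RA_4d, and at 70.0 and 60.3 CPM at 7 dpf. Irf7 was at 110 and 167 CPM, and at 95.3 and 71.3 CPM at 7 dpf. For these genes RA_4d is the highest of the 4 libraries. Rsad2 (viperin, which makes a chain-terminating nucleotide) had the same order, with 66.2, 92.4, 34.0 and 29.7 CPM, but did not reach 1.5-fold. Ifi27l2a was the exception, with 1372 CPM in control_4d and 1018 in RA_4d.

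The 4 macrophage clusters did not share this direction. In Pf4/Apoe cells 15 of 35 members were higher in RA_4d and 0 lower (all genes: 1.82% higher, 3.43% lower), in Arg1/Mmp12 cells 11 of 33 (3.08%) and in Apoe/C1qb cells 5 of 36 (3.77%). In Ccl8/Cbr2 cells 0 of 35 were higher and 6 lower (all genes: 3.62% higher, 3.99% lower). Isg15 was at 55.5 CPM in control_4d and 111 in RA_4d in Pf4/Apoe cells, at 46.5 and 91.3 CPM in Arg1/Mmp12 cells, and at 98.0 and 91.8 CPM in Ccl8/Cbr2 cells. Ifit1 was at 82.5 and 39.9 CPM in Ccl8/Cbr2 cells, and at 19.3 and 33.7 CPM in Pf4/Apoe cells. The Ccl8/Cbr2 cells had the highest type I sum of the 4 clusters in control_4d, control_7d and RA_7d (5750, 3208 and 2891 CPM), and in RA_4d (3560 CPM) only Apoe/C1qb cells were higher (3769 CPM). In monocytes 12 of 25 members were lower in RA_4d (8.75% of all genes) and 0 higher (5.59%). Over the whole myeloid lineage the counts were 1 higher (Cxcl9) and 1 lower (Ifi27l2a) of 36, beside 3.67% and 2.53% of all genes.

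The other myeloid cells, which join a Retnla/H2-Eb1 cluster and an Elane/Ctsg cluster, were lower in RA at both days. At 4 dpf 15 of 36 members were lower and 1 (Cxcl9) higher (all genes: 5.44% lower, 5.24% higher), and at 7 dpf 15 of 34 were lower and 0 higher (5.33% lower, 4.31% higher). Irf7 was at 115 CPM in control_4d and 59.9 in RA_4d, and at 134 CPM in control_7d and 59.7 in RA_7d. Cxcl10 was at 61.2 and 23.3 CPM, and at 106 and 25.9 CPM. The summed neutrophil markers in these cells were at 727, 11580, 1651 and 949 CPM and the macrophage markers at 6602, 2769, 5845 and 4989 CPM, so the mix within them differed most in RA_4d, and its part in the result was not tested.

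**Figure D3:**
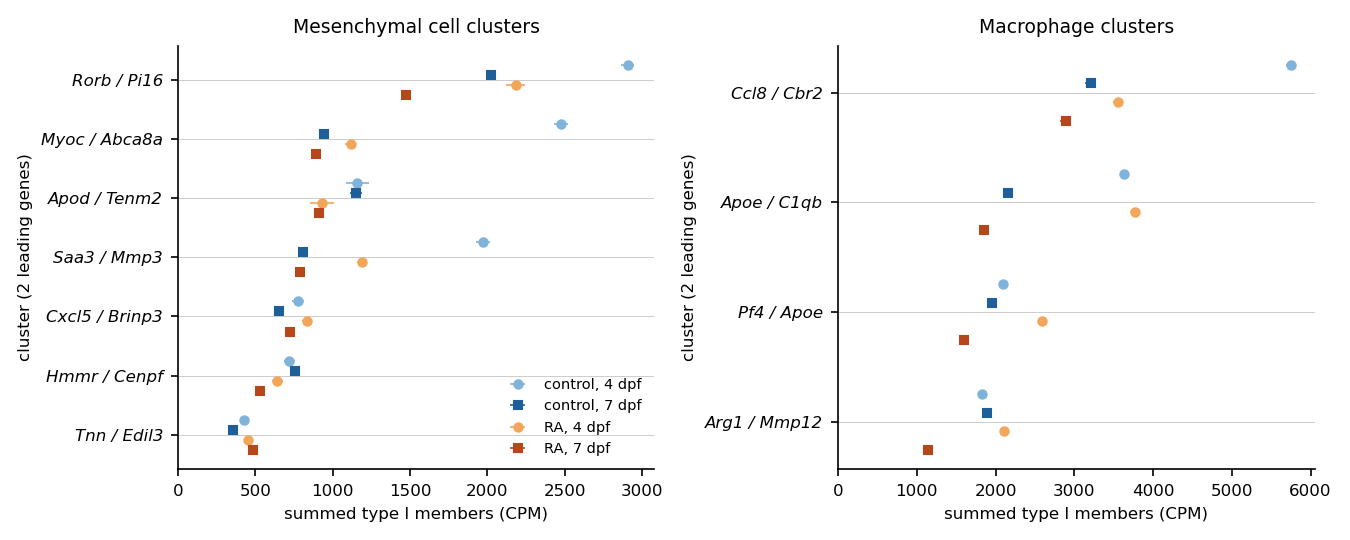
Type I sum (CPM, linear axis) in each cluster of mesenchymal cells (left) and macrophages (right), with 1 point per library and bars for the 95% Poisson interval. In the Saa3/Mmp3, Myoc/Abca8a and Ccl8/Cbr2 clusters control_4d stands above the other libraries (1970, 2475 and 5750 CPM), whereas in Pf4/Apoe cells RA_4d is highest (2593 CPM).

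In endothelial cells the sums at 4 dpf were close: 1190 and 1225 CPM for type I (ratio 1.03, 1.01 to 1.05, and 1.15 without Ifi27l2a and Bst2) and 369.5 and 363 CPM for type II (0.981, 0.941 to 1.02). Of 34 members 4 were past 1.5-fold higher and 0 lower (all genes: 2.73% higher, 1.74% lower): Ifit2, Oasl1, Rsad2 and Cmpk2. These rest on few cells. In the 34 lymphatic endothelial cells of RA_4d Rsad2 was at 583 CPM, against 9.29 CPM in the 31 of control_4d, and 2 cells held 91.67% of the IFIT and OAS UMIs there. In blood endothelial cells alone Rsad2 was at 30.8 and 40.6 CPM, and 0 of 34 members were higher and 1, Ifi27l2a, lower (all genes: 2.01% higher, 2.22% lower). Without the highest 5% of cells 0 were higher and 1 lower, and the ratios of Rsad2 and Cmpk2 turned below 1.

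Muscle cells also had members higher in RA_4d, although their type I sums were the lowest of the types at 4 dpf. Their type I sum was 171 CPM in control_4d and 289 CPM in RA_4d, and 297 and 218 CPM at 7 dpf. Without Ifi27l2a and Bst2 it was 115 and 205 CPM at 4 dpf, and 163 and 165 CPM at 7 dpf. At 4 dpf 8 of 14 members were higher and 0 lower, beside 9.86% and 8.59% of all genes. Isg15 was at 9.5 and 26.5 CPM there, from 204 and 117 cells. Stat2 was higher in the RA library at both days (7.88 and 22.7 CPM, then 11.4 and 23.6 CPM), as was Irf1 (21.2 and 35.9 CPM, then 21.1 and 33.3 CPM).

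At 7 dpf the sums over all mesenchymal cells were close in the 2 conditions, while its clusters were not alike. The type I sum was 767 CPM in control_7d and 820 CPM in RA_7d (ratio 1.07, 1.06 to 1.08, and 0.973 without Ifi27l2a and Bst2, which turns the direction), and the type II sum 127 and 151 CPM (1.19, 1.16 to 1.22). Of 36 members 1 was higher (Trim30a, at 15 and 24.1 CPM) and 3 lower (Ifit3, Ifi44 and Cxcl10), beside 4.51% and 4.55% of all genes, so the share of members was near that of all genes. Ifit3 was the only member past 1.5-fold in the same direction at both days in 1 of the 3 lineages, at 28.2 and 15.8 CPM at 4 dpf and 15.6 and 7.54 CPM at 7 dpf. The type I sum was lower in RA_7d in 5 of 7 mesenchymal clusters, with ratios from 0.703 to 1.37, and without Ifi27l2a and Bst2 3 clusters were past 1.5-fold lower and 0 higher. The Rorb/Pi16 cluster, which had the highest type I sum of these clusters, made up 12.8% of the mesenchymal cell type in control_7d and 20.7% in RA_7d. Ifit1, Rsad2 and Cxcl10 in Saa3/Mmp3 cells and Ifit1 and Ifit3 in Myoc/Abca8a cells were past 1.5-fold lower in RA at both days. In Tnn/Edil3 cells 11 of 31 members were higher in RA_7d and 0 lower (all genes: 5.27% higher, 4.45% lower), and in Rorb/Pi16 cells 13 of 35 were lower and 0 higher (8.84% lower, 6.19% higher).

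**Figure D4:**
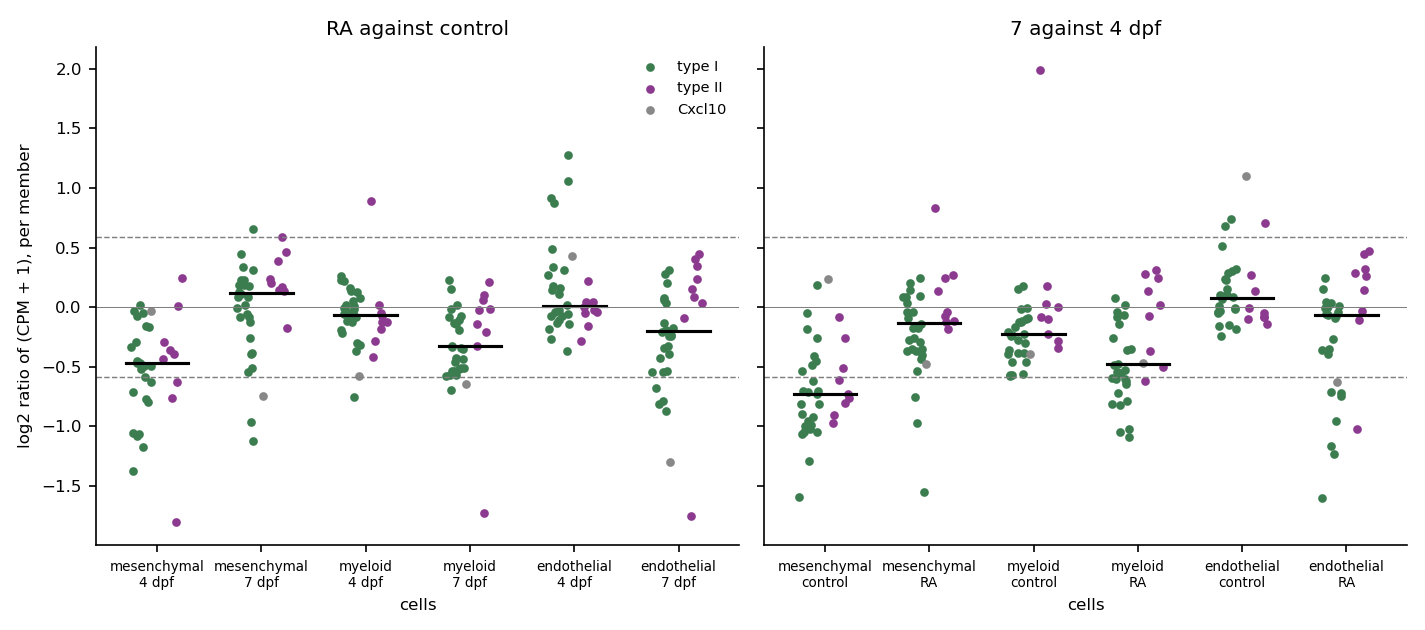
Log2 ratio of CPM + 1 for each member, RA against control at 4 and 7 dpf (left) and 7 against 4 dpf in control and in RA (right), in mesenchymal, myeloid and endothelial cells, with black bars for medians and dashed lines at 1.5-fold. At 4 dpf 13 of 35 members lie below the lower line in mesenchymal cells, and at 7 dpf 3 of 36.

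In the myeloid lineage at 7 dpf the type I sum was 2090 CPM in control_7d and 1620 CPM in RA_7d (ratio 0.775, 0.765 to 0.785), and 0.812 without Ifi27l2a and Bst2. Of 36 members 0 were higher and 3 lower (Oas3, Cxcl9 and Cxcl10), beside 4.66% and 2.49% of all genes. When cell types were weighted equally the count was 18 lower, with clusters weighted equally 13, and with cells weighted equally 15. In macrophages 2 of 36 were lower (1.53%), Oas3 (22.7 and 13.4 CPM) and Cxcl9 (8.78 and 2.58 CPM). In dendritic cells 21 of 25 were lower and 0 higher (all genes: 10.9% lower, 4.15% higher), with a median log2 ratio of -1.31. Isg15 was at 318 CPM in control_7d and 95.7 in RA_7d there, and Cxcl9 at 108 and 4.79 CPM. The dendritic difference rests partly on few cells of control_7d, where 10 of 184 cells held 72.67% of the IFIT and OAS UMIs, and without the highest 5% of cells 8 members were lower. At 4 dpf 7 of 33 members were lower there and 2 higher (3.88% and 3.94% of all genes), and 6 were lower in RA at both days: Ifit2, Ifit3, Gbp2, Irgm1, Cxcl9 and Cxcl10.

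In endothelial cells at 7 dpf the type I sum was lower in RA_7d. The type II sum was higher by a smaller amount, which only part of its members shared. The type I sum was 1340 CPM in control_7d and 1102 CPM in RA_7d (ratio 0.823, 0.807 to 0.840, and 0.910 without Ifi27l2a and Bst2), and the type II sum was 366 and 411 CPM (1.13, 1.09 to 1.17). Of 34 members 0 were higher and 6 lower (all genes: 4.02% higher, 3.63% lower): Ifit2, Oasl1, Zbp1, Irf7, Cxcl9 and Cxcl10. Irf7 was at 25.3 CPM in control_7d and 13.3 in RA_7d, and at 24.1 and 23.1 CPM at 4 dpf. Cxcl10 was at 58.3 and 23.1 CPM, with 26.7 and 36.2 CPM at 4 dpf, so that control_7d is the highest library. Irf1, in contrast, was at 99.3 and 136 CPM, and Igtp at 27.3 and 34.9 CPM. For Gbp, Cxcl9 and Irgm1 alone the log2 ratio of the type II sum was -0.0069. In the Selp/Vwf cluster 13 of 30 members were lower and 0 higher (4.26% lower, 4.71% higher).

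In tenocytes at 7 dpf 13 of 24 members were lower in RA and 1, Ifit2, was higher (all genes: 3.18% lower, 5.76% higher). Ifi27l2a was at 404 CPM in control_4d, 39.7 in RA_4d, 175 in control_7d and 138 in RA_7d there, so the libraries of 4 dpf were the farthest apart. In pericytes or smooth muscle cells at 7 dpf 10 of 29 members were lower and 1, Stat2, higher (3.57% and 5.38%). In T or NK cells 4 of 18 were lower (Bst2, Zbp1, Stat2 and Cxcl10) and 0 higher (5.18% and 5.03%).

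Cxcl9 varied widely between libraries. In the 4 cell groups below it was lower in the RA library at both days. The difference was little in endothelial cells at 4 dpf and in mesenchymal cells at 7 dpf. In pericytes or smooth muscle cells at 4 dpf it rests on few UMIs, from 99 and 75 cells. In macrophages and other myeloid cells it was past 1.5-fold higher in RA_4d. In the myeloid lineage that direction turned without the highest 5% of cells. In pericytes or smooth muscle cells it was at 3.79, 2.79, 74.9 and 2.40 CPM, in dendritic cells at 15.6, 3.77, 108 and 4.79 CPM, and in endothelial cells at 12.6, 12.4, 21.2 and 5.58 CPM. In these 3 cell groups control_7d is the highest library. In mesenchymal cells control_4d was highest instead, at 33.7 CPM.

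From 4 to 7 dpf the type I sum of macrophages was lower at the later day in both conditions (ratio 0.758 in control and 0.633 in RA), and more members were past the fold in RA than in control, a difference that was not tested. The macrophage type I sum without Ifi27l2a and Bst2 had a ratio of 0.766 in control and 0.512 in RA. In RA 23 of 36 members were lower and 0 higher (all genes: 3.11% lower, 7.74% higher), with a median log2 ratio of -0.93. In control 8 were lower and 1, Cxcl9, higher (1.86% lower, 2.64% higher), with a median of -0.35. Oas3 in macrophages was at 27.8 CPM in control_4d and 22.7 in control_7d, and at 44.7 in RA_4d and 13.4 in RA_7d. In RA the lower members were found in each macrophage cluster: 23 of 35 in Pf4/Apoe (4.62% of all genes), 21 of 33 in Arg1/Mmp12 (8.2%), 30 of 34 in Apoe/C1qb (7.3%) and 21 of 34 in Ccl8/Cbr2 (4.36%). In control they were found in Apoe/C1qb (23 of 36, 3.36%) and Ccl8/Cbr2 (17 of 35, 5.73%), with 1, Cxcl10, in each of the other 2 clusters (Pf4/Apoe 2.19%, Arg1/Mmp12 2.16%). Over the whole myeloid lineage 0 of 36 members were lower in control and 1, Cxcl9, higher (1.22% and 3.01%), and in RA 13 were lower and 0 higher (8.02% and 9.62%). In endothelial cells 4 of 34 were higher in control and 0 lower (4.56% and 1.97%), and in RA 0 were higher and 9 lower (4.54% and 2.39%). RA_4d is the library with the few high lymphatic endothelial cells described above. Without the highest 5% of cells 1 member was past the fold in RA. In the blood endothelial clusters the ratio of the type I sum in RA ran from 0.839 to 1.03. The comparison by day in RA shares its RA_4d library with the comparison of conditions at 4 dpf.

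In mesenchymal cells the counts by day were far apart in the 2 conditions, a difference that was not tested. In control the type I sum was 0.481 of its 4 dpf level (0.595 without Ifi27l2a and Bst2), and 24 of 36 members were lower and 0 higher (all genes: 4.4% lower, 5.82% higher), among them Ifi27l2a, Ifit1, Oasl2, Cmpk2, Zbp1, Irf7, Gbp2 and Irgm1. In RA the ratio was 0.883 (0.825), with 3 of 36 lower and 1 higher (4.26% and 4.83%). The control count changed with the weights of clusters and the limits on cells, and the part of the mix of cells in it was not tested. The Rorb/Pi16 cluster made up 22.2% of the mesenchymal cell type at 4 dpf and 12.8% at 7 dpf. With clusters weighted equally 4 members were lower and 2 higher, and with looser limits 6 were lower and 0 higher. Within clusters 28 of 34 members were lower in Saa3/Mmp3 (6.15% of all genes), 22 of 33 in Myoc/Abca8a (6.99%), 8 of 35 in Rorb/Pi16 (4.94%) and 7 of 29 in Tnn/Edil3 (2.97%). Control_4d enters both this comparison and that of RA with control at 4 dpf. In dendritic cells of control callus the direction was the opposite, with 17 of 33 members higher at 7 dpf and 0 lower (5.45% higher, 3.28% lower). That count uses the control_7d dendritic cells, which include the few high cells described above.

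In macrophages the IFIT and OAS UMIs were found in a minority of cells at the depth used here. At such low counts sampling alone leaves many cells without a UMI and raises the share of the highest 5%, more so where the level is lower. The share expected from sampling was not computed, so the values below do not show how uneven the cells are. After each cell was thinned to 4000 UMIs, the highest 5% of macrophages held 43.4%, 37.4%, 48.9% and 51.0% of the IFIT and OAS UMIs, and 60.8%, 52.8%, 67.7% and 70.7% of macrophages had none. The share of macrophages with such a UMI was thus highest in RA_4d, and their UMIs were the least concentrated there. RA_4d was also the library in which macrophages had the highest levels of Oasl2 and Oas3. In mesenchymal cells the highest 5% held 45.5%, 53.8%, 68.0% and 53.1%. Of the type II UMIs in blood endothelial cells the highest 5% held 27.0%, 25.9%, 30.1% and 22.7%, and the median cell had 1 UMI.

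**Figure D5:**
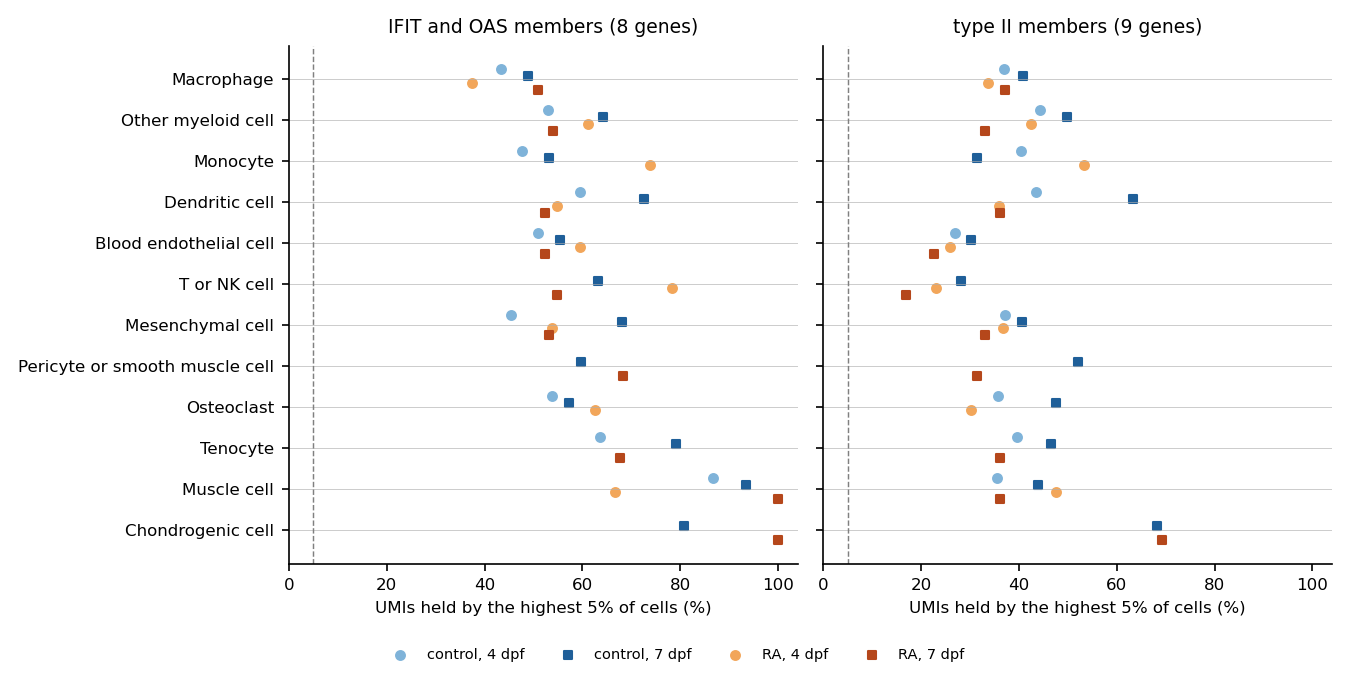
Percent of the IFIT and OAS UMIs (left) and of the type II UMIs (right) held by the highest 5% of cells of a type, with each cell thinned to 4000 UMIs, 1 point per library with at least 100 cells of the type, and a dashed line at 5%. The line marks equal counts in all cells, not the share expected from sampling. In macrophages RA_4d is lowest for IFIT and OAS (37.4%), and the type II values of blood endothelial cells run from 22.7% to 30.1%.

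Genes of the other lists of the pathway were past the fold in small numbers. At 4 dpf in mesenchymal cells (all genes: 4.14% higher, 2.57% lower) 1 of 13 receptor and signalling genes was higher (Jak2), 0 of 14 sensing genes were past the fold, and 1 of 19 MHC class I genes (H2-Q6) and 1 of 16 NF-κB feedback genes (Traf1) were lower. In the myeloid lineage at that day 1 of 14 receptor and signalling genes was higher, Ifnlr1, a chain of the receptor for type III interferons, at 0.386 CPM in control_4d and 2.92 in RA_4d, and 0 genes of the other lists were past the fold. Neutrophils held 65.35% of the Ifnlr1 UMIs of all libraries, and they were 25 cells in control_4d and 136 in RA_4d. The part of this mix in the Ifnlr1 difference was not tested. In endothelial cells 0 were. At 7 dpf 2 of 19 MHC class I genes were higher in mesenchymal cells (H2-K1 and H2-T23, beside 4.51% of all genes) and 1 in endothelial cells (H2-T23, beside 4.02%). In the myeloid lineage Jak2 and Nfkbiz were higher (beside 4.66%), and 0 genes of these lists were lower in the 3 lineages. No gene of these lists passed 1.5-fold in the same direction at both days in any of the 3 lineages.

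Among 11386 genes outside the lists, those whose level over 50 sums of cell type and library was most like the type I sum were Trim30d (Pearson's r = 0.857), Ly6e, Capzb, Nmi, Map3k8, H2-M3, Ier5, Lgals9, Rnf213 and Snx2 (0.809). For the type II sum they were Parp9 (0.862), Nmi, Rnf213, Cr1l, Babam2, Lgals9, Elf1, Dtx3l, Gm20559 and Icam1 (0.785). Nmi, Rnf213 and Lgals9 stood in both lists. The points share libraries and depth, so these values describe likeness of pattern only.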

How the data were processed

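The deposited files hold unnormalized UMI counts for each gene in each barcode, 1 table per library, made by the authors with Cell Ranger 7.0.1 on mm10 from Chromium 3′ libraries. Cells with 4000 to 50000 UMIs, 2000 to 7000 genes and at most 8% mitochondrial UMIs were kept, the limits of the study's methods. Libraries were integrated and clustered in Seurat 5.3.0 (R 4.3.3) with 15 principal components at resolution 1, on 2000 variable genes from which the interferon lists had been removed, giving 32 clusters. Clusters were named from marker lists, with limits on marker scores that were chosen once the clusters were known. Of the clusters 2 (215 cells) stayed unnamed. Doublets were called with Scrublet in scanpy 1.11.5 (592 cells, 2.32%) and left out in an alternative only.

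UMIs were summed per cell type and library in Python 3.11.15 (numpy 2.4.6, pandas 2.3.3, scipy 1.17.1) and divided by the summed total. Levels needed at least 20 cells in a library, and counts of members past the fold, by cell type or cluster, at least 100 cells in both libraries. Levels have exact Poisson intervals and ratios exact conditional intervals. Conditions were compared without a test, since each has 1 library. The members, the other lists and the motifs were chosen with earlier results of these data known. All members are named, with the ligand and receptor genes and the 10 genes most alike in pattern to each sum. An item withheld for evaluation is not reported here. The ratio calculation was tested on simulated Poisson counts without variation between libraries or cells, which can check the arithmetic only. TMM scaling (edgeR 4.0.16) of the counts, other filters, weights and clusterings were alternatives.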

Additional observations from a re-analysis of the deposited data

Results flagged for a closer look

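For some pairs of cell types the summed level of the members was past 1.5-fold in opposite directions in the same comparison. Mesenchymal cells are here the cell type, without tenocytes and chondrogenic cells, so their ratios differ from those of the lineage above. With 1 library per condition and day the difference between types was not tested. At 4 dpf the ratio of RA to control for the type I sum was 1.685 in muscle cells, against 0.5848 in mesenchymal cells, 0.6347 in monocytes and 0.5699 in other myeloid cells. Without Ifi27l2a and Bst2 these ratios were 1.785, 0.691, 0.732 and 0.665.

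From 4 to 7 dpf in control callus the type I sum had a ratio of 1.515 in dendritic cells and 1.733 in muscle cells, against 0.5137 in mesenchymal cells and 0.655 in tenocytes. Without Ifi27l2a and Bst2 they were 1.61, 1.42, 0.627 and 1.01. The type II sum had a ratio of 2.103 in dendritic cells and 0.6594 in monocytes. The dendritic value of control_7d rests partly on few cells, since 10 of 184 cells held 63.35% of the type II UMIs.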

How the results depend on the processing

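No paired analysis was possible because each condition and day has 1 library and no result comes from a test across replicates; leaving out a replicate was not possible for the same reason. The cause of the shifts below was not tested. Levels near 1 CPM rest on few UMIs, and every interval covers counting error only. Weights by cluster, the removal of the highest 5% of cells, the sums without Ifi27l2a and Bst2, and all alternatives for the comparisons by day were chosen after the data had been seen.

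In the main calculation the members past the fold were 2 (myeloid), 13 (mesenchymal) and 4 (endothelial) for RA against control at 4 dpf, 3, 4 and 6 at 7 dpf, 1, 24 and 4 for 7 against 4 dpf in control, and 13, 4 and 9 in RA, higher or lower. The log2 ratios of the type I sums were -0.36, -0.78 and 0.042 at 4 dpf and -0.37, 0.098 and -0.28 at 7 dpf, and those of the type II sums -0.084, -0.46 and -0.027, and -0.15, 0.25 and 0.17. Values of the lineages that moved under an alternative follow, with the lineage in brackets. For sums a shift beyond the counting interval counts as one, and for counts a shift of over 1.5 times. Counts by cell type are not listed. Of their comparisons with an alternative, 58 moved and 135 did not. With cell types weighted equally the number of members past the fold was 14 (endothelial), 11 (mesenchymal) and 8 (myeloid) for 7 against 4 dpf in RA, 9 (endothelial), 13 (mesenchymal) and 2 (myeloid) for 7 against 4 dpf in control, 15 (endothelial) and 8 (myeloid) for RA against control at 4 dpf and 7 (mesenchymal) and 18 (myeloid) for RA against control at 7 dpf, and the sums had log2 ratios (RA over control) of 0.55 (endothelial), -0.92 (mesenchymal) and -0.62 (myeloid) for the type I sum at 4 dpf, -0.071 (endothelial), -0.24 (mesenchymal) and -0.90 (myeloid) for the type I sum at 7 dpf, -0.13 (endothelial), -0.27 (mesenchymal) and -0.42 (myeloid) for the type II sum at 4 dpf and 0.069 (mesenchymal) for the type II sum at 7 dpf. Without the highest 5% of cells the number of members past the fold was 1 (endothelial) for 7 against 4 dpf in RA, 1 (endothelial) for RA against control at 4 dpf, 3 (endothelial) and 7 (mesenchymal) for RA against control at 7 dpf and 6 (myeloid) for 7 against 4 dpf in control, and the sums had log2 ratios (RA over control) of -0.17 (endothelial), -0.85 (mesenchymal) and -0.30 (myeloid) for the type I sum at 4 dpf, -0.21 (endothelial) and 0.35 (mesenchymal) for the type I sum at 7 dpf, 0.34 (endothelial), 0.49 (mesenchymal) and 0.012 (myeloid) for the type II sum at 7 dpf and -0.31 (mesenchymal) for the type II sum at 4 dpf. Without integration the number of members past the fold was 2 (endothelial) and 3 (myeloid) for 7 against 4 dpf in control and 5 (myeloid) for RA against control at 7 dpf, and the sums had log2 ratios (RA over control) of -0.035 (endothelial) and -0.38 (myeloid) for the type I sum at 4 dpf and 0.11 (mesenchymal) for the type I sum at 7 dpf. With cells weighted equally the number of members past the fold was 2 (endothelial) for RA against control at 4 dpf and 15 (myeloid) for RA against control at 7 dpf, and the sums had log2 ratios (RA over control) of -0.15 (endothelial), -0.85 (mesenchymal) and -0.25 (myeloid) for the type I sum at 4 dpf, -0.32 (endothelial), 0.039 (mesenchymal) and -0.53 (myeloid) for the type I sum at 7 dpf, -0.12 (endothelial) for the type II sum at 4 dpf and -0.32 (myeloid) for the type II sum at 7 dpf. At a limit of 2-fold the number of members past the fold was 2 (endothelial), 6 (mesenchymal) and 0 (myeloid) for RA against control at 4 dpf and 2 (endothelial), 1 (mesenchymal) and 1 (myeloid) for RA against control at 7 dpf. With a pseudocount of 10 CPM the number of members past the fold was 1 (endothelial), 5 (mesenchymal) and 1 (myeloid) for RA against control at 4 dpf and 3 (endothelial), 0 (mesenchymal) and 1 (myeloid) for RA against control at 7 dpf. With clusters weighted equally the number of members past the fold was 8 (mesenchymal) for 7 against 4 dpf in RA, 6 (mesenchymal) for 7 against 4 dpf in control, 3 (mesenchymal) for RA against control at 4 dpf and 13 (myeloid) for RA against control at 7 dpf, and the sums had log2 ratios (RA over control) of 0.20 (endothelial), -0.46 (mesenchymal) and -0.46 (myeloid) for the type I sum at 4 dpf, -0.24 (endothelial), -0.18 (mesenchymal) and -0.69 (myeloid) for the type I sum at 7 dpf, 0.12 (endothelial) and 0.059 (mesenchymal) for the type II sum at 7 dpf and -0.081 (mesenchymal) and -0.20 (myeloid) for the type II sum at 4 dpf. With looser limits on cells the number of members past the fold was 6 (mesenchymal) for 7 against 4 dpf in control, 7 (mesenchymal) for RA against control at 4 dpf and 6 (myeloid) for 7 against 4 dpf in RA, and the sums had log2 ratios (RA over control) of -0.25 (endothelial), 0.15 (mesenchymal) and -0.35 (myeloid) for the type I sum at 7 dpf, -0.45 (mesenchymal) and -0.46 (myeloid) for the type I sum at 4 dpf, -0.27 (mesenchymal) and -0.17 (myeloid) for the type II sum at 4 dpf and 0.31 (mesenchymal) for the type II sum at 7 dpf. With TMM scaling the number of members past the fold was 6 (myeloid) for RA against control at 7 dpf, and the sums had log2 ratios (RA over control) of -0.0084 (endothelial) and -0.85 (mesenchymal) for the type I sum at 4 dpf, 0.14 (mesenchymal) and -0.41 (myeloid) for the type I sum at 7 dpf, -0.54 (mesenchymal) for the type II sum at 4 dpf and 0.29 (mesenchymal) for the type II sum at 7 dpf. At resolution 0.5 the number of members past the fold was 5 (myeloid) for RA against control at 7 dpf, and the sums had log2 ratios (RA over control) of -0.070 (endothelial) for the type I sum at 4 dpf and -0.099 (endothelial) for the type II sum at 4 dpf. With the families alone (IFIT and OAS for type I; Gbp, Cxcl9 and Irgm1 for type II) the sums had log2 ratios (RA over control) of 0.36 (endothelial), -0.73 (mesenchymal) and -0.0069 (myeloid) for the type I sum at 4 dpf, -0.46 (endothelial), -0.31 (mesenchymal) and -0.34 (myeloid) for the type I sum at 7 dpf, -0.093 (endothelial) and -0.77 (mesenchymal) for the type II sum at 4 dpf and -0.0069 (endothelial), 0.30 (mesenchymal) and -0.24 (myeloid) for the type II sum at 7 dpf. Without the highest member the sums had log2 ratios (RA over control) of 0.14 (endothelial), -0.50 (mesenchymal) and -0.081 (myeloid) for the type I sum at 4 dpf, -0.18 (endothelial), -0.029 (mesenchymal) and -0.25 (myeloid) for the type I sum at 7 dpf, 0.049 (endothelial) and 0.28 (mesenchymal) for the type II sum at 7 dpf and -0.71 (mesenchymal) for the type II sum at 4 dpf. With the lists kept among the variable genes the sums had log2 ratios (RA over control) of -0.021 (endothelial) and -0.38 (myeloid) for the type I sum at 4 dpf. Without Ifi27l2a and Bst2 the sums had log2 ratios (RA over control) of 0.21 (endothelial), -0.51 (mesenchymal) and -0.0087 (myeloid) for the type I sum at 4 dpf and -0.14 (endothelial), -0.039 (mesenchymal) and -0.30 (myeloid) for the type I sum at 7 dpf.

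Of single genes past the fold, Cmpk2 (log2 ratio -0.21) and Rsad2 (-0.11) in endothelial cells and Cxcl9 in myeloid cells (-0.78) at 4 dpf, and Cxcl10 in mesenchymal cells at 7 dpf (0.45), turned direction without the highest 5% of cells, and Trim30a in mesenchymal cells at 7 dpf (-0.050) with cell types weighted equally. Of the other comparisons of these genes with an alternative, 336 kept their direction past 1.5-fold and 75 kept their direction but fell under it. The 336 include the limit of 2-fold and a lower limit on UMIs. These alternatives leave the ratio of a gene as it was, so their outcome was fixed in advance. Of the shares held by the highest 5% of cells, 12 moved beyond their counting interval with cells thinned to 8000 UMIs, and 12 did not.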

Other observations

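In neutrophils Ifi27l2a was at 472 CPM in control_4d, 92.5 in RA_4d, 483 in control_7d and 87.6 in RA_7d, from 25, 136, 39 and 20 cells. The RA libraries were both low and the control libraries both high, but the cells are few in 3 of the 4 libraries. Cmpk2, a mitochondrial nucleotide kinase, was highest in neutrophils when libraries were pooled (25.1 CPM), with 57.4 CPM in control_4d and 18 to 22.9 CPM in the other libraries.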
